A study of Mus musculus with 6 samples.

Results

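The ERK feedback and output genes are transcripts induced by the ERK signalling cascade, and many of them limit its activity. Here 10 of them were followed. Dusp4, Dusp5 and Dusp6 encode phosphatases, and Spry1, Spry2 and Spry4 are Sprouty genes. Spred1 and Spred2 are Sprouty-related genes, and Etv4 and Etv5 encode ETS factors. All 10 members were taken by gene symbol from the table of raw counts, so they are 10 of 23420 genes. The rule used symbols alone, but the set was put together with earlier results of these data known. Of these, 9 passed the filter on low counts, above 1 CPM (reads of a gene scaled to the depth of its library) in at least 3 libraries, and Etv4 did not. RNA had been sequenced from whole proximal jejunum, a segment of the small intestine, of male mice. The ob/ob mice lack functional leptin, the satiety hormone, and overeat, while the C57BL/6J wild type (WT) mice served as controls. Each group had 3 libraries, and each library pooled equal amounts of RNA from 2 jejuna, so that p-values measure the spread between pools. The sources used here do not give the age of these animals, and the leptin defect was present in all tissues and throughout life.

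Growth factors bind receptor tyrosine kinases, which recruit adaptors and activate Ras, and Ras passes the signal through the kinases RAF and MEK to ERK. Active ERK induces a set of genes that act back on the cascade: DUSP phosphatases remove phosphate from ERK itself, Sprouty proteins act between receptor and RAF, and SPRED proteins recruit the Ras inhibitor neurofibromin. ETV4 and ETV5 are transcription factors of the ETS family that are also induced by the cascade. Because their transcription follows ERK activity, transcripts of these genes are often read together as its output. In the intestine, signalling from the EGF receptor through ERK drives proliferation in the crypts.

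To show the sequence before the start of members described below, RefSeq promoter windows of the build GRCm38.p6 were used, from 250 bases before to 50 bases after the start. A window was matched for 7 of the 10 members, and Dusp4, Etv4 and Spry4 had none matched. Both strands were searched for CCGGAA, a form of the site bound by ETS factors, TGANTCA, the AP-1 element, and TGACG, a half-site of the cyclic AMP response element. Dusp6 is shown as the member with the largest difference, Spry2 as the member with the ETS letters, and Dusp5 as one of the members with the half-site. Capitals mark a match, which for Dusp5 is CGTCA, the half-site on the reverse strand.
Dusp6 (chr10:99262981-99263280, plus strand): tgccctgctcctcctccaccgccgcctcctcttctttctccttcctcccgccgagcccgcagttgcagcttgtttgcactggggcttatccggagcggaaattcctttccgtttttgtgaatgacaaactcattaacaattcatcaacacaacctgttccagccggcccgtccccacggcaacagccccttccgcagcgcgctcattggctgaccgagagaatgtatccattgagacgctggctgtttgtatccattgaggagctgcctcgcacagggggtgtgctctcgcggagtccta
Spry2 (chr14:105896770-105897069, minus strand): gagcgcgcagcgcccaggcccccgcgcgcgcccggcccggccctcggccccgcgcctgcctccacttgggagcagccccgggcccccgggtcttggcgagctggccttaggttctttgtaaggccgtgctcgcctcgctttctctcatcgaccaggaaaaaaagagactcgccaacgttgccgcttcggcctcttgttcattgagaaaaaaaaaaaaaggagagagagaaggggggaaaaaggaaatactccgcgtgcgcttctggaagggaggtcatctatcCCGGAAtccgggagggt
Dusp5 (chr19:53528895-53529194, plus strand): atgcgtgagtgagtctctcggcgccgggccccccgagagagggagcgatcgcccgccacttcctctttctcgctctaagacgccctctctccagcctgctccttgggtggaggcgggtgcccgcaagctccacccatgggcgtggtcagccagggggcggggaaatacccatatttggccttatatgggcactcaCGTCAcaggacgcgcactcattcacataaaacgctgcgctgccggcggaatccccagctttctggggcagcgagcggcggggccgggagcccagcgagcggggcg

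The ETS letters stood in 1 of the 7 matched members, 33 bases after the start of Spry2, and in 16.7% of all 27025 genes with a window. The AP-1 letters stood in 0 of 7 members and in 8.97% of all genes. The half-site stood 55 bases before the start of Dusp5 and 51 bases before that of Spred2, and in 23.0% of all genes. The Dusp6 window held none of the 3 motifs in the letters searched, and shorter or other forms of these sites were not searched. Its GC content was 57.3% with 19 CpG dinucleotides, against medians of 52.7% and 7 over all windows. A match describes letters in the window only.

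The libraries held 14661981 to 18286080 counts, and a level of 3 counts was worth 0.160 to 0.198 CPM. All CPM values were scaled with TMM factors, which lay between 0.927 and 1.06. No 2 libraries agreed within counting noise (lowest chi-square divided by its degrees of freedom, 7.75), so all 6 were kept as samples. Of 13168 genes tested, 747 or 5.67% passed the edgeR quasi-likelihood test at an adjusted p of 0.05, 3.77% higher and 1.91% lower in ob/ob. Lep, the gene mutated in ob/ob mice, was near the floor, with counts of 23, 0 and 20 in the ob/ob and of 7, 29 and 6 in the WT libraries. A point mutation can leave the transcript in place, so that Lep gives no check on the labels. The summed level of 12 epithelial markers was 13450 to 14460 CPM in ob/ob and 10990 to 12160 in WT, and 8 further lists of cell type markers are given beside the results they touch.

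The question was whether the feedback and output genes differed between jejuna of overeating ob/ob mice and those of WT mice. One member, Dusp6, rose 1.86-fold in ob/ob. The other 8 tested members did not pass the test. Of all 9 tested members, 7 had a log2 fold change below 0, beside 52.7% of all tested genes. The signs of Spry1, Spry2, Spry4, Spred1 and Spred2 among them turned with another scaling of the libraries, given below. Called higher were therefore 1 of 9 members, beside 3.77% of all tested genes, and called lower were 0 of 9, beside 1.91%. With no adjustment, 3 of 9 members (Dusp4, Dusp6 and Etv5) had a p under 0.05, beside 25.9% of all genes. The values of the groups did not overlap for 4 of the 9, namely Dusp4, Dusp6, Spry2 and Etv5, beside 32% of all genes. The median log2 fold change over the 9 was -0.046, and over all tested genes it was -0.014.

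Among the phosphatases, Dusp6 encodes a cytoplasmic enzyme selective for ERK. The gene lies on chromosome 10 from 99263231 to 99267489 of GRCm38, on the plus strand. It was at 135, 176 and 144 CPM in the ob/ob libraries and at 81.2, 90.1 and 73.8 CPM in the WT libraries. Every ob/ob library was higher than every WT library. The second ob/ob library was the highest of the 6. The mean was 152 ± 21.6 CPM over the ob/ob and 81.7 ± 8.18 CPM over the WT libraries (SD, n = 3). On the log2 scale the fold change was 0.89 ± 0.11 (SE), with a 95% interval of 0.65 to 1.14 and an edgeR adjusted p of 0.00728. Behind these values stood 2195, 2895 and 2411 counts in ob/ob and 1442, 1367 and 1388 counts in WT. Leaving out any 1 library kept Dusp6 past the threshold, with log2 fold changes of 0.77 to 0.97. With all 6 libraries it ranked 31 among all tested genes by p.

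Dusp4 encodes an inducible phosphatase of the nucleus that acts on ERK and on related kinases, and it lies on chromosome 8 from 34807297 to 34819894 on the plus strand. It was at 4.55, 5.05 and 5.42 CPM in ob/ob and at 8.23, 7.52 and 6.49 CPM in WT. All ob/ob libraries were below all WT libraries, with 1.07 CPM between them. Mean levels were 5.01 ± 0.431 CPM for ob/ob and 7.41 ± 0.875 CPM for WT (SD, n = 3). The log2 fold change of -0.56 ± 0.14 (SE) had an unadjusted 95% interval of -0.89 to -0.24, and the edgeR adjusted p of 0.0537 missed the threshold. Its direction was the same in 22 of 22 alternatives of the processing, and it was called in 10 of them, so that the call depends on the setting. Alternatives that changed only the threshold reused the same fit, so the direction could not differ in them.

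Dusp5 encodes a nuclear phosphatase that acts on ERK and holds it in the nucleus, and it lies on chromosome 19 from 53529109 to 53542431 on the plus strand. It was at 7.14, 8.21 and 9.52 CPM in ob/ob and at 7.72, 9.62 and 6.91 CPM in WT, so that the groups overlapped. Its log2 fold change was 0.043 ± 0.16 (SE), with an interval of -0.32 to 0.41 and an edgeR adjusted p of 0.891. These libraries leave room for a true difference anywhere within these bounds. The gene shares 547 bases with AC137853.2 on the opposite strand, and the sources used here do not say whether counting used strand.

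**Figure D1:**
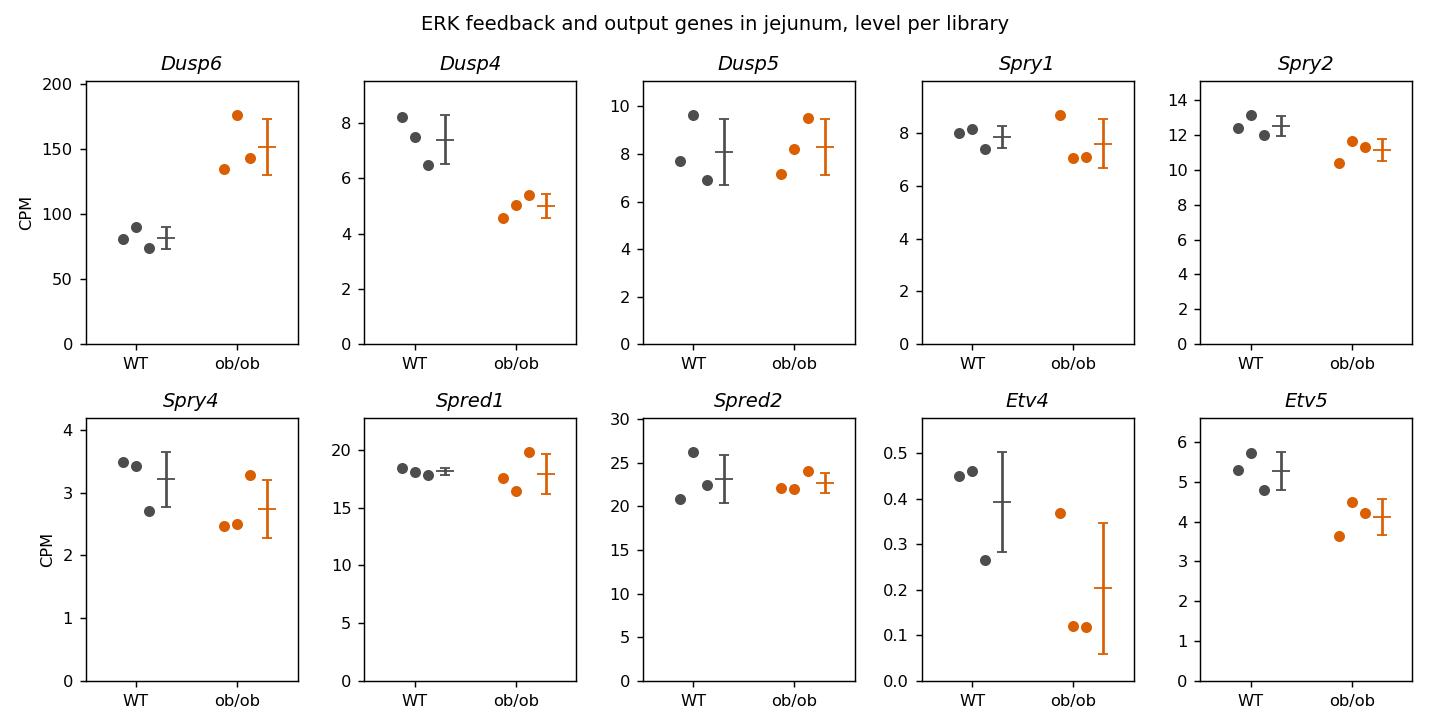
Level of each of the 10 ERK feedback and output genes in CPM (vertical axis, starting at 0, a separate scale for each gene) in WT and ob/ob jejunum. Points are libraries in the order of their replicate numbers, and bars show the mean ± SD over 3 libraries. Dusp6 lies at 135 to 176 CPM in ob/ob and 73.8 to 90.1 CPM in WT, while Dusp4, Spry2 and Etv5 lie lower in every ob/ob library than in any WT library.

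Sprouty proteins inhibit signalling from receptor tyrosine kinases, and their genes are themselves induced by it. Spry2, on chromosome 14 from 105891947 to 105896819 on the minus strand, was at 10.4, 11.7 and 11.3 CPM in ob/ob and 12.4, 13.1 and 12.01 CPM in WT. The groups were separated by 0.339 CPM. For Spry2 the log2 fold change was -0.17 ± 0.096 (SE), with an interval of -0.38 to 0.050 and an edgeR adjusted p of 0.301, so the difference did not pass the test.

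Spry1, on chromosome 3 from 37639947 to 37644598 on the plus strand, was at 8.68, 7.05 and 7.08 CPM in ob/ob and 8.001, 8.18 and 7.39 CPM in WT. The groups overlapped, since the first ob/ob library was the highest of all 6. Its log2 fold change was -0.046 ± 0.13 (SE), with an interval of -0.34 to 0.24 and an edgeR adjusted p of 0.854. Spry1 shares 710 bases with Gm42922 on the opposite strand.

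Spry4 was the lowest of the Sprouty genes, on chromosome 18 from 38586247 to 38601415 on the minus strand. It was at 2.46, 2.49 and 3.27 CPM in ob/ob and 3.49, 3.43 and 2.71 CPM in WT. The third library of each group crossed the other group, so the groups overlapped. Its log2 fold change was -0.22 ± 0.19 (SE), with an interval of -0.66 to 0.22 and an edgeR adjusted p of 0.504. Only 40 to 62 counts per library stood behind Spry4, and it shares 71 and 119 bases with Gm27369 and Gm27804 on the opposite strand.

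SPRED proteins act on the cascade at the level of Ras, through neurofibromin. Spred1, on chromosome 2 from 117121374 to 117182279 on the plus strand, was at 17.6, 16.4 and 19.8 CPM in ob/ob and 18.5, 18.1 and 17.8 CPM in WT. All WT values fell within the range of the ob/ob libraries. For Spred1 the log2 fold change was -0.015 ± 0.090 (SE), with an interval of -0.22 to 0.19 and an edgeR adjusted p of 0.933. Spred2, on chromosome 11 from 19924375 to 20024026 on the plus strand, was at 22.1, 22.01 and 24.04 CPM in ob/ob and 20.9, 26.2 and 22.5 CPM in WT. Here all ob/ob values fell within the range of WT. Its log2 fold change was -0.027 ± 0.096 (SE), with an interval of -0.24 to 0.19 and an edgeR adjusted p of 0.887. The Spred1 and Spred2 intervals were among the narrowest of the members and left room for changes of about that size in either direction.

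Of the ETS factors, Etv5 lies on chromosome 16 from 22381309 to 22439719 on the minus strand. It was at 3.63, 4.50 and 4.22 CPM in ob/ob and 5.30, 5.74 and 4.78 CPM in WT. The groups did not overlap, with 0.285 CPM between them. Mean levels were 4.12 ± 0.444 CPM for ob/ob and 5.27 ± 0.476 CPM for WT (SD, n = 3). Its log2 fold change of -0.35 ± 0.15 (SE) had an unadjusted interval of -0.69 to -0.011, and an edgeR adjusted p of 0.182. The gene therefore did not pass the test over all genes. Etv4, on chromosome 11 from 101769742 to 101785371 on the minus strand, had 6, 2 and 2 counts in ob/ob and 8, 7 and 5 in WT. Its ob/ob libraries 2 and 3 lay under 3 counts, and Etv4 was not tested.

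**Figure D2:**
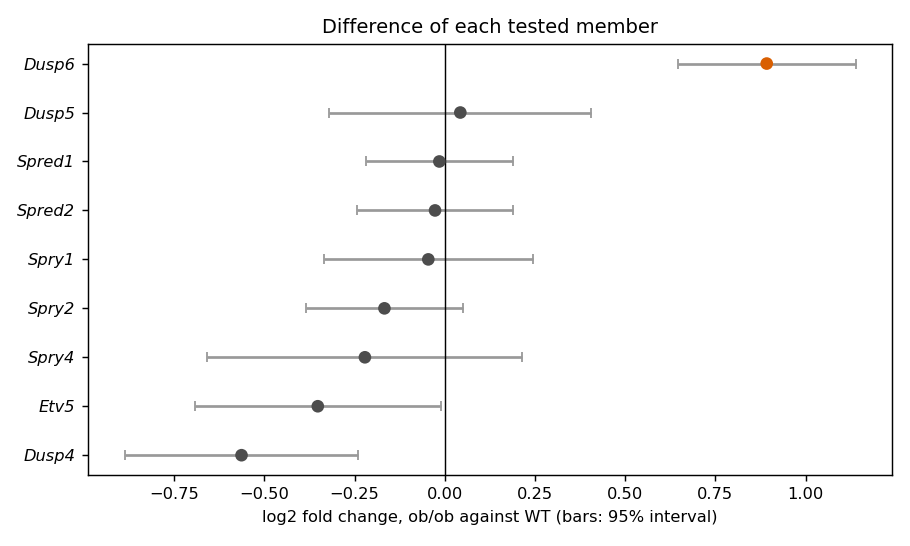
Log2 fold change of ob/ob against WT (horizontal axis) for the 9 tested members, with bars for the unadjusted 95% interval from edgeR. Dusp6 (orange) at 0.89 is the one member past an adjusted p of 0.05, and the intervals of Dusp4 and Etv5 end below 0 although neither passed after adjustment.

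Levels of different genes were compared per kilobase of exon. Dusp6 was the most abundant member in both groups, at 48.4 ± 6.90 CPM per kb in ob/ob and 26.1 ± 2.61 in WT (SD, n = 3). Next came Spry2 at 5.33 and 5.99 CPM per kb in ob/ob and WT, and Spred2 at 4.92 and 5.02. Dusp5, Spred1, Spry1 and Dusp4 followed at 1.83 to 3.35 CPM per kb in ob/ob and 2.67 to 3.27 in WT. Their order was not the same in both groups. In WT, Dusp4 at 2.70 ± 0.319 and Spry1 at 2.70 ± 0.142 CPM per kb did not differ beyond their spread, while in ob/ob Dusp4 at 1.83 ± 0.157 lay below Spry1 at 2.62 ± 0.320. Etv5 at 1.00 and 1.28 CPM per kb and Spry4 at 0.577 and 0.675 were low, and Etv4 at 0.0655 and 0.127 was the lowest.

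Dusp6 held 63.7%, 69.4% and 62.9% of the counts of the 10 members in the ob/ob libraries and 48.9%, 49.4% and 47.7% in the WT libraries. The exact binomial 95% intervals were 61.3% to 70.8% over the ob/ob libraries and 45.9% to 51.3% over the WT libraries, and cover counting error only. The other 9 members summed to 77.0, 77.5 and 84.8 CPM in ob/ob and 84.9, 92.4 and 80.9 CPM in WT, so that their sums overlapped. Dusp6 was singled out after its values had been seen, and these shares are a description with no test.

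**Figure D3:**
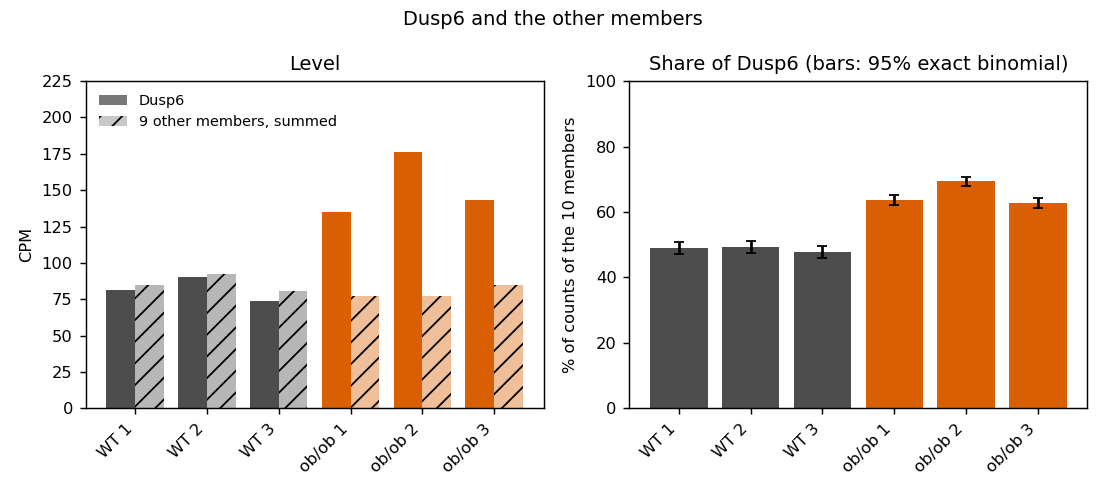
Left, Dusp6 (plain bars) and the sum of the 9 other members (hatched bars) in CPM for each library. Right, Dusp6 as a percentage of all counts of the 10 members, with exact binomial 95% intervals. The share is 47.7% to 49.4% in the WT libraries and 62.9% to 69.4% in the ob/ob libraries.

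A ratio of transcripts within a library does not depend on how libraries are scaled. The ratio of Dusp6 to Dusp4, both CPM, was 29.7, 34.9 and 26.5 in the ob/ob libraries and 9.88, 11.99 and 11.4 in WT. The ratio to Etv5 was 37.2, 39.1 and 34.0 in the ob/ob libraries and 15.3, 15.7 and 15.4 in WT. To Spred2, the ratio was 6.11, 7.997 and 5.97 in the ob/ob libraries and 3.90, 3.43 and 3.28 in WT. The groups did not overlap in the ratio of Dusp6 to any of the 8 other tested members. All 8 ratios share Dusp6, the member called higher, as numerator, so they are not independent of its call or of each other. Dusp6 was chosen for them after its values had been seen, and they are a description with no test. The mean log2 ratio differed least for Dusp5, by 0.85, and the ratio itself averaged 18.5 ± 3.21 in ob/ob and 10.2 ± 0.719 in WT (SD, n = 3).

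The libraries of 1 group did not all stand at the same place. Over the 9 tested members, the third WT library was the lowest of its group for 8 and the second WT library was the highest for 6. Among the ob/ob libraries, the first was the lowest of its group for 6 members and the third the highest for 5. The second WT library also had the highest summed level of 6 fat cell markers, at 224 CPM against 30.6 to 43.3 CPM in the other WT libraries and 4.38 to 10.9 CPM in ob/ob. The part of this difference in the members' levels was not tested.

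The jejunum was taken whole, and in whole tissue fewer cells of a type and less RNA per cell cannot be told apart. The summed level of 10 enterocyte markers was 55830 to 62430 CPM in ob/ob and 45480 to 51920 CPM in WT. Of these 10 markers 3 (Alpi, Fabp2 and Slc5a1) rose, and of the 12 epithelial markers 2 (Cdx2 and Krt20) rose, beside 3.77% of all genes, the largest with a log2 fold change of 0.54. In the same lists 2 enterocyte markers and 1 epithelial marker had a log2 fold change below 0, and none of these was called. Markers of crypt base and cycling cells overlapped between groups, at 712 to 968 CPM in ob/ob and 689 to 847 CPM in WT. Of these 8 markers, 0 were called by edgeR in either direction, beside 5.67% of all genes. At an unadjusted p under 0.05 were 0 of 8, beside 25.9% of all genes.

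The summed level of 12 endothelial markers was 89.2 to 106 CPM in ob/ob and 116 to 124 CPM in WT. Of the 12, 1 was called: Kdr, the receptor of vascular endothelial growth factor, fell by 0.70 on the log2 scale. The 10 fibroblast and matrix markers summed to 645 to 740 CPM in ob/ob and 776 to 804 CPM in WT, with 0 called. Markers of interstitial cells of Cajal, neurons and glia were at 32.9 to 35.2 and 39.2 to 45.4 CPM, with 4 of 10, among them Elavl4, S100b and Sox10, below the filter. Smooth muscle markers overlapped, at 933 to 1207 and 1080 to 1469 CPM. Immune cell markers also overlapped, at 185 to 239 CPM in ob/ob and 228 to 371 CPM in WT. Of the 10 tested 2 fell, among them the B cell gene Ms4a1, and the mast cell gene Cpa3 was below the filter. Of the 6 fat cell markers 2, Cfd and Car3, fell. Over all tested genes 1.91% were called lower. Summed levels were thus higher for epithelial lists and lower for endothelial and fibroblast lists in ob/ob, although most of these markers were not called. The part of these lists in the differences of Dusp6, Dusp4 and Etv5 was not tested.

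Where libraries were scaled to the summed epithelial markers in place of TMM, the log2 fold change of Dusp6 was 0.62 (edgeR adjusted p = 0.00445). Scaled to the endothelial and fibroblast markers it was 1.13 (edgeR adjusted p = 0.00011), so that Dusp6 was called under both. The same 2 scalings gave Dusp4 -0.82 (edgeR adjusted p = 0.00632) and -0.33 (adjusted p = 0.129). Etv5 had -0.61 (edgeR adjusted p = 0.0201) and -0.12 (adjusted p = 0.630). These scalings called 5217 and 3749 of 13168 genes in either direction. They moved the median of all genes to -0.27 and 0.22, and Dusp6 lay above that median in each while Dusp4 and Etv5 lay below it. The sign of Spry2 and Spry4 turned with the endothelial and fibroblast scaling, as did that of Spry1, Spred1 and Spred2, and the sign of Dusp5 turned with the epithelial scaling and with library size alone.

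**Figure D4:**
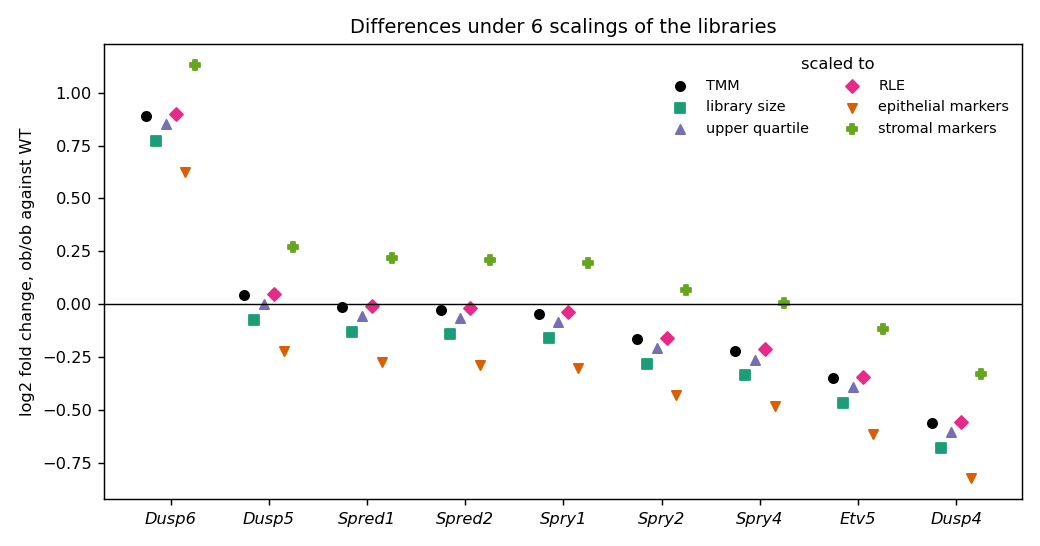
Log2 fold change of ob/ob against WT (vertical axis) for the 9 tested members under 6 scalings of the libraries, 1 symbol for each. Stromal markers are the endothelial and fibroblast lists. Each scaling moves all members together: Dusp6 stays between 0.62 and 1.13 and Dusp4 between -0.82 and -0.33, while the members near 0 cross it.

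The members were then set beside the other genes of the pathway, ordered by role. Of 10 relatives of the members in the DUSP, Sprouty, SPRED and ETS families, 8 were tested and 1 rose, beside 3.77% of all genes. That gene was Dusp8, a phosphatase that acts mainly on the stress kinases JNK and p38. It was at 16.4, 17.5 and 16.0 CPM in ob/ob and 11.3, 8.70 and 7.18 CPM in WT. All ob/ob libraries were higher than all WT libraries, by 0.88 ± 0.15 on the log2 scale (SE, edgeR adjusted p = 0.0171). The call was lost without the first or the second ob/ob library, at 0.89 and 0.83. Dusp7 (-0.32, adjusted p = 0.313) and Dusp16 (0.082, adjusted p = 0.455) did not pass, Dusp2 was below the filter, and Spry3 had no count in any library. The median over the 8 was 0.12.

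Of 17 other transcriptional outputs of ERK, 14 were tested, and 2 rose and 0 fell, beside 3.77% and 1.91% of all genes. Errfi1, an inducible inhibitor of the EGF receptor, was at 117, 125 and 95.04 CPM in ob/ob and 68.7, 62.1 and 75.7 CPM in WT. The groups did not overlap, and the log2 fold change was 0.70 ± 0.11 (SE, edgeR adjusted p = 0.0124), with an adjusted p = 0.0537 without the first ob/ob library. Fosb, an immediate early gene of the AP-1 family, was at 4.001, 4.68 and 3.10 CPM in ob/ob and 1.86, 0.923 and 0.691 CPM in WT. Its log2 fold change was 1.75 ± 0.33 (SE, edgeR adjusted p = 0.0217), and the call was lost without ob/ob library 1 (1.74) or 2 (1.603), or without the second WT library (1.63). Fos, another AP-1 gene, missed the threshold at 0.61 ± 0.16 (SE, adjusted p = 0.0544). Of the 14 genes, 12 had a log2 fold change above 0 and 2 below 0, beside 52.7% of all tested genes below 0. The median was 0.19, and over all tested genes it was -0.014.

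Among 20 growth factor ligands, 16 were tested, and 2 rose, beside 3.77% of all genes, and 1 fell, beside 1.91%. Both that rose bind the EGF receptor. Areg, which encodes amphiregulin, was at 30.5, 26.4 and 23.4 CPM in ob/ob and 4.68, 3.49 and 5.26 CPM in WT. Ereg, which encodes epiregulin, was at 23.4, 18.2 and 13.3 CPM in ob/ob and 5.86, 7.38 and 6.27 CPM in WT. The log2 fold change was 2.57 ± 0.15 for Areg (SE, edgeR adjusted p = 0.000597) and 1.497 ± 0.20 for Ereg (edgeR adjusted p = 0.00923). Both were called in 22 of 22 alternatives. Fgf1, a ligand of all FGF receptors, fell by 0.65 ± 0.15 on the log2 scale (SE, edgeR adjusted p = 0.0457), from 6.09, 7.19 and 6.22 CPM in WT to 3.63, 4.01 and 4.76 CPM in ob/ob. Its call was lost with any 1 library left out. For Fgf1, epithelial scaling gave -0.91 (edgeR adjusted p = 0.00574) and stromal scaling -0.42 (edgeR adjusted p = 0.0678). The median over the 16 ligands was 0.017, and Epgn, Fgf2, Fgf10 and Fgf15 were below the filter.

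Of 13 receptor tyrosine kinases, 12 were tested, and 0 rose, beside 3.77% of all genes, and 1 fell, beside 1.91%. Igf1r, the receptor of insulin-like growth factor 1, was at 25.3, 21.1 and 24.4 CPM in ob/ob and 31.0, 31.2 and 29.3 CPM in WT, a log2 difference of -0.37 ± 0.082 (SE, edgeR adjusted p = 0.0373). That call was lost with any 1 library left out. For Igf1r, epithelial scaling gave -0.63 (edgeR adjusted p = 0.00447) and stromal scaling -0.13 (edgeR adjusted p = 0.345). Egfr, the receptor of Areg and Ereg, had a log2 difference of 0.25 ± 0.073 (SE, adjusted p = 0.0754). Its family member Erbb3 had -0.26 ± 0.089 (SE, adjusted p = 0.106), and neither passed. The median over the 12 was -0.16, and Erbb4 had no count in any library.

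All 19 genes for adaptors, Ras, RAF, MEK, ERK and its RSK kinases were tested, and 2 rose, beside 3.77% of all genes, and 0 fell, beside 1.91%. Among them Map2k2, which encodes MEK2, was at 234 to 265 CPM in ob/ob and 189 to 205 CPM in WT. It was 0.31 ± 0.066 higher on the log2 scale (SE, edgeR adjusted p = 0.0319) and lost the call with any 1 library left out. For Map2k2, epithelial scaling gave 0.052 (edgeR adjusted p = 0.565) and stromal scaling 0.55 (edgeR adjusted p = 0.00365). Map2k1, which encodes MEK1, missed the threshold at 0.28 ± 0.069 (SE, adjusted p = 0.0519). Of 9 inhibitors of Ras, RAF and their receptors outside the members, 0 were called by the edgeR quasi-likelihood test, 0 by DESeq2, and 2 had an unadjusted p under 0.05, beside 25.9% of all genes. They were Dab2ip, at -0.21 ± 0.057, and Cbl, at -0.18 ± 0.056 (SE), with adjusted p of 0.0606 and 0.0820.

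**Figure D5:**
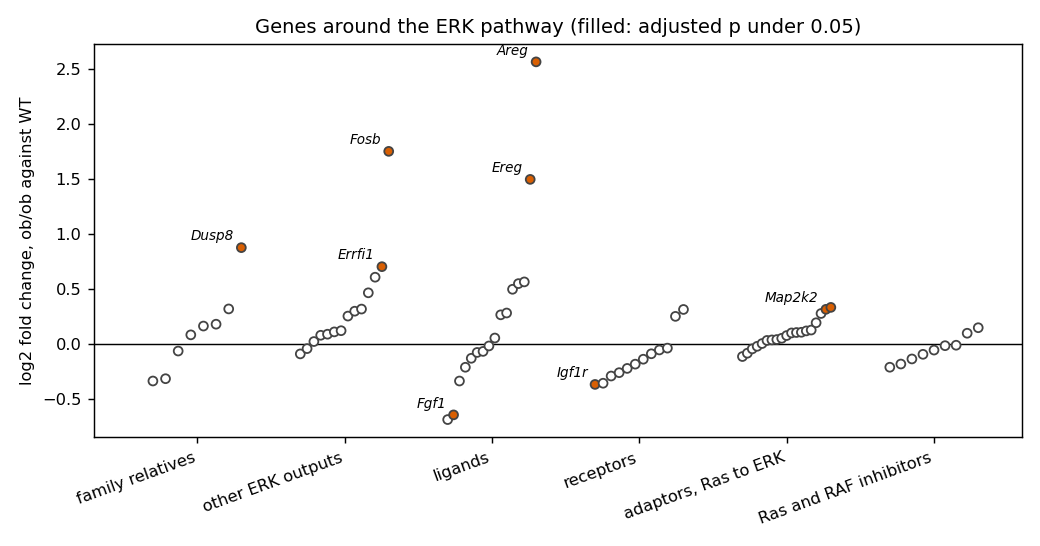
Log2 fold change of ob/ob against WT (vertical axis) for the tested genes of 6 lists around the ERK pathway, each list sorted by its values from left to right. Filled points passed an adjusted p of 0.05, and those named in the text carry their names. Areg at 2.57, Fosb at 1.75 and Ereg at 1.497 lie highest, and Fgf1 and Igf1r are the called genes below 0.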

How the data were processed

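RNA sequencing of whole proximal jejunum was compared between 3 ob/ob and 3 WT libraries. The authors aligned reads to mm10 with TopHat2 and counted them per gene with HTSeq 0.6p1, and the deposited counts are whole reads with no normalization. The deposited normalized signal, used in an alternative only, equals each library's counts times 1 constant set by the authors. The authors' table of log2 fold changes, mean log2 CPM and p-values was not used, and neither were 36 further columns of values per sample, 12 of them from outside the series.

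Groups were compared in edgeR 4.0.16 (R 4.3.3) by the two-sided quasi-likelihood F-test, for genes that exceeded 1 CPM in 3 or more libraries, with TMM factors, the group as the only term, and Benjamini-Hochberg adjustment over 13168 genes at 0.05. The standard error was the log2 fold change divided by the square root of F. On data simulated for 13168 genes of this comparison of ob/ob with WT, 68% of 100 genes with a 1.5-fold change were recovered, and 95% of those with a 2-fold change, with 20 false calls among 183. That share of false calls is above the 0.05 aimed at, so calls near the threshold are less sure. The changed genes were drawn from those above a minimum mean level, so recovery among the lowest genes was not measured.

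All 10 members were named, and of each pathway list every gene past the threshold, with others from the 3 smallest p-values. Members and lists were chosen with earlier results of these data known, so lists are described by counts and medians. Marker lists name genes past the threshold or below the filter. Certain genes taken by these rules are left unnamed but stay in the counts of their lists. Gene positions came from GENCODE M21 (GRCm38, equivalent to mm10), and promoter windows are from RefSeq on GRCm38.p6. Protein sequences were not used here. Alternatives were other scalings and filters, DESeq2 1.42.0, the likelihood ratio test, limma 3.58.1 (voom, and log2 values of that signal after a pseudocount of 1 or 0.5), other thresholds, a replicate block and each library left out. Those with another threshold reused the main fit. In them no direction could change, and a gene already called stayed called at the looser thresholds. Figures were drawn with matplotlib 3.10.9.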

Additional observations from a re-analysis of the deposited data

How the results depend on the processing

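Dusp6 was called in 22 of 22 alternatives, with log2 fold changes of 0.62 to 1.13 and adjusted p up to 0.0315. Dusp4 kept its direction in 22 of 22 and was called in 10. The number of members called lower was 1, with Dusp4, for library size alone, upper quartile factors, no filter, a mean CPM of at least 5, the likelihood ratio test, limma with either pseudocount and an adjusted p of 0.10. It was 2 with unadjusted p (Dusp4 and Etv5), where 25.9% of all genes passed in either direction. It was 3 with epithelial scaling (Dusp4, Spry2 and Etv5), where 5217 of 13168 genes were called in either direction. It was 0 with RLE factors, DESeq2, limma-voom, stromal scaling, the replicate block, a threshold of 0.01 and each library left out. The cause was not tested. Without the filter, Etv4 had a log2 fold change of -0.91 (adjusted p = 0.418).

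Signs turned for members near 0. With stromal scaling, the log2 fold change was 0.22 for Spred1, 0.21 for Spred2, 0.19 for Spry1, 0.068 for Spry2 and 0.0055 for Spry4. Dusp5 had -0.074 with library size alone and -0.22 with epithelial scaling. With 1 library left out, Dusp5 ranged from -0.073 to 0.18, Spred1 from -0.096 to 0.043, Spred2 from -0.098 to 0.067 and Spry1 from -0.15 to 0.0027. The members' median was -0.30 with epithelial and 0.19 with stromal scaling, and -0.12 to -0.0070 with 1 library left out, while the median of all genes was -0.13 with library size alone, -0.27 with epithelial and 0.22 with stromal scaling.

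Calls over all genes numbered 1735 with library size alone, 5217 with epithelial and 3749 with stromal scaling, 1404 with the likelihood ratio test, 1059 with DESeq2, and 122 to 674 with 1 library left out, lowest without the first ob/ob library. They numbered 70 at 0.01, 1854 at 0.10, 3409 with unadjusted p and 858 with upper quartile factors, each of 13168 tested. Fewer genes were tested at a mean CPM of at least 5, where 729 were called. Tested genes numbered 19 for adaptors to ERK, 8 for relatives, 16 for ligands, 9 for inhibitors, 14 for other outputs and 12 for receptors. For adaptors to ERK the count of calls was 0 at 0.01, 1 with library size alone or the block, 10 with stromal and 5 with epithelial scaling and 4 with unadjusted p. For relatives it was 0 at 0.01 and 2 with either marker scaling. For ligands it was 5 with DESeq2 or library size alone, 7 at 0.10 or with epithelial scaling, 6 with the likelihood ratio test or stromal scaling and 8 with unadjusted p. For inhibitors it was 2 at 0.10, with upper quartile factors, stromal scaling or unadjusted p, 3 with library size alone, 1 at a mean CPM of at least 5 and 6 with epithelial scaling. For other outputs it was 4 with DESeq2, the likelihood ratio test, the block or 0.10, 0 at 0.01, 1 at a mean CPM of at least 5, 9 with stromal scaling and 5 with unadjusted p. For receptors it was 0 at 0.01, 2 at 0.10, 3 with library size alone, 10 with epithelial scaling and 5 with unadjusted p. With 1 library left out, the counts were 0 to 1 for relatives, 0 to 3 for other outputs, 2 to 3 for ligands, 0 for receptors and inhibitors and 0 to 2 for adaptors to ERK.

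Replicate numbers did not pair the samples: deviations from the group means of same-numbered libraries correlated at -0.076, 0.10 and -0.023 across genes. With the replicate block, Dusp6 was at 0.89, members called higher were 1 and lower 0, and 730 genes were called in all.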

Other observations

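Dusp2, a phosphatase of immune cells that was below the filter, had 14, 14 and 16 counts in ob/ob and 39, 21 and 13 in WT. The first WT library, in which Dusp2 was highest, also held the highest level of the B cell gene Ms4a1, at 15.3 CPM against 6.99 and 2.55 in the other WT libraries. Both genes were chosen after their values had been seen, and the relation was not tested.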
